A study of Homo sapiens with 24 samples.

Results

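The comparison described here follows the RNA that sticks to an IgG1 isotype control antibody in untreated BEAS-2B cells over culture time. BEAS-2B is a virus-immortalised line of human bronchial epithelial cells. Its 6 arrays, of 24 in the series, are untreated cells given PBS for 18 h (3 arrays) and untreated cells given PBS for 3 h (3 arrays), both precipitated with the IgG1 control. They were chosen by their column labels alone: the arrays of sets 1, 3 and 4 at each time, with 355 of 384 probes carrying a value. The 3 sets are replicate numbers, and the design text states 3 biological replicates. The other 18 arrays hold precipitates with the anti-HuR antibody, or cells given TNFα and IFNγ at 50 ng/ml each. HuR is an RNA-binding protein that the study precipitated to find the transcripts it carries, and the IgG1 precipitate is the background of that measurement. All groups were grown in medium with serum, harvested with trypsin and lysed at equal cell numbers, and none received a genetic change. The labels do not give whether the medium was renewed when PBS was added. Since an array measures a whole precipitate, fewer cells that carry a transcript and less of it per cell cannot be told apart.

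An isotype control antibody has no target in the cell, so RNA in its precipitate comes from what clings to beads and tubes, and abundant transcripts are well represented in it. Cells that are fed, moved or given serum switch on immediate-early genes such as those of the EGR and AP-1 families, whose short-lived transcripts are made from factors already present and decline once the stimulus is over. IGFBP3, IL6 and CCL2 are secreted products of epithelial cells and fibroblasts whose transcripts follow serum, growth factors and inflammatory signals.

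Levels are given as log2 intensity minus the median of the array, so that 0 is the median probe and 1 is a doubling above it. Differences are the level at 18 h minus the level at 3 h within a set, averaged over the 3 sets. Their SE is that of limma, which combines a gene's own spread between sets with a spread pooled over all genes. The median probe lay 0.53 to 0.99 log2 above the dimmest probe of its array, so levels near 0 hold little signal over background. At 18 h 49, 33 and 31 probes of sets 1, 3 and 4 lay more than 1 log2 above the median, against 47, 53 and 38 at 3 h. The array medians were 11831, 5655 and 15945 intensity units at 18 h and 9636, 5450 and 17017 at 3 h. Their log2 ratio averaged 0.0852 ± 0.197 (SD, n = 3 sets, exact paired permutation p = 0.75, where 0.25 is the smallest p that 3 pairs allow). Set 1 stood apart from the others. Across genes, which are not independent replicates, levels of the 18 h and 3 h arrays of one set correlated at 0.902 to 0.926, set 3 against set 4 at 0.810 to 0.902, and set 1 against sets 3 and 4 at 0.287 to 0.462.

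No transcript differed between 18 h and 3 h beyond the spread of the sets by the test used, and those that came nearest were lower at 18 h. IGFBP3, EGR1, FOSL1, EGR3 and GREM1 were among those furthest apart, with mean differences between -1.18 and -0.65. In limma with the set as a block, 0 of 355 genes (0%) had an adjusted p under 0.05. At an unadjusted p under 0.05 there were 23 lower genes (6.48% of those tested) and 2 higher genes (0.563%). In all 3 sets, 83 genes were lower at 18 h (23.4%) and 18 were higher (5.07%). In 10 genes (2.82%) all 3 arrays at 18 h lay below all 3 at 3 h, and in 1, CD247 (0.282%), all lay above. Among the 10 were CCL2, CSNK2B, FOSL1, IL12A, IL12RB2, IL6, IL6R, NUP214 and SOCS6. CD247, which encodes the zeta chain of the T cell receptor complex, lay near the median throughout, at 0.05 ± 0.00 at 18 h and -0.06 ± 0.06 at 3 h (SD, n = 3 arrays each). Over all genes the median difference was -0.05, with 134 above 0 and 221 below. That balance depended on the scaling: 180 were above and 175 below 0 with quantile normalization, 209 and 146 without normalization, and 334 and 21 in the second deposited table without centring.

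The counts changed with the sets and the scaling. Without set 1, 8 genes passed, all lower at 18 h, among them IGFBP3 (-1.48), EGR1 (-1.31), FOSL1 (-1.14), EGR3 (-0.88), FGF2 (-0.76), GREM1 (-0.75) and CXCL2 (-0.75). That fit pooled the error over all genes, so that each had the same SE of 0.22. Without set 3 the differences were smaller, at -0.90 for IGFBP3, -0.47 for EGR1, -0.63 for FOSL1 and -0.21 for EGR3, and IGFBP3 alone passed (limma adjusted p = 0.0466). Quantile normalization in place of median centring let 3 genes pass, IGFBP3 and FOSL1 among them, and no normalization let 4 pass, IGFBP3, FOSL1 and EGR1 among them.

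**Figure D1:**
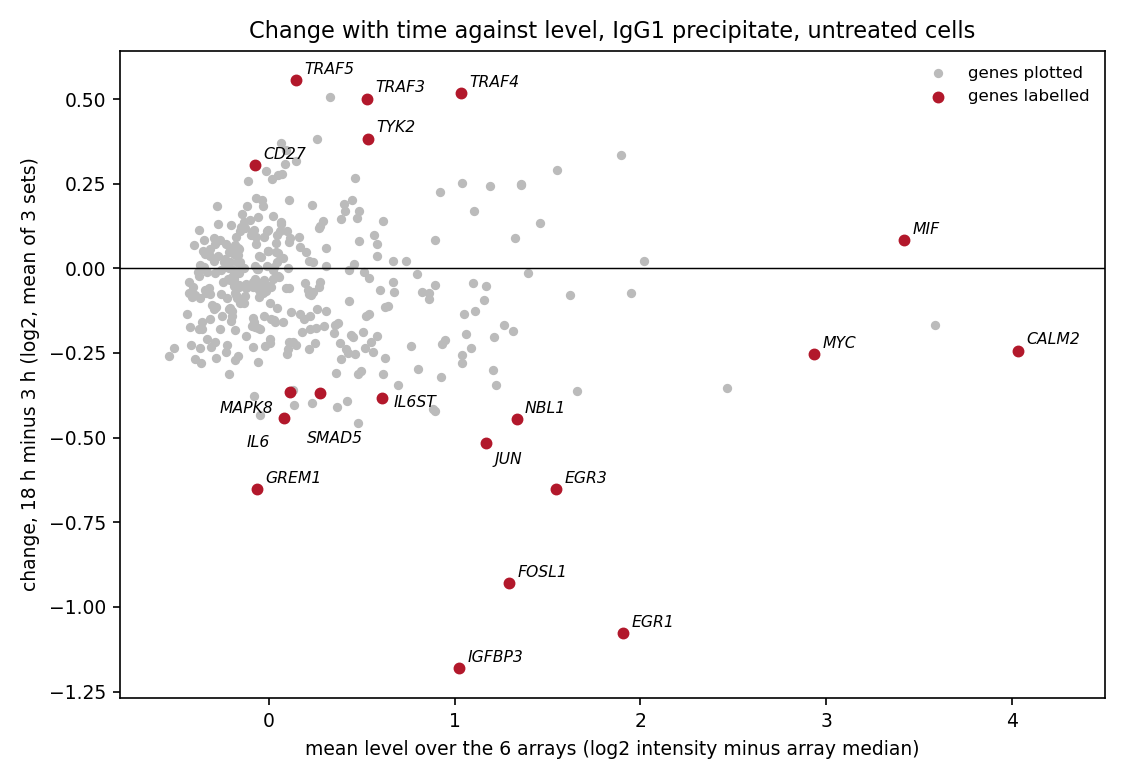
Difference between 18 h and 3 h (log2, mean of 3 sets) against the mean level over the 6 arrays (log2 intensity minus array median), 1 point per gene shown, with named genes in red. IGFBP3, EGR1 and FOSL1 lie well below 0, between -1.18 and -0.93, while CALM2, the brightest, lies at -0.24.

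Of the immediate-early EGR transcripts, EGR1 and EGR3 were lower at 18 h in each set, with set 3 furthest apart. EGR1, a zinc-finger transcription factor that serum and growth factors induce within minutes to hours, had levels of 1.76, 1.05 and 1.29 in sets 1, 3 and 4 at 18 h, against 2.37, 3.34 and 1.62 at 3 h. The 18 h array of set 1 lay above the 3 h array of set 4, so the groups overlap, but each set was lower at 18 h. The mean difference was -1.08 ± 0.37 (SE, n = 3 sets, 2.11-fold lower, limma adjusted p = 0.577). EGR3, a relative of EGR1, stood at 2.67, 0.47 and 0.51 at 18 h, against 2.86, 2.00 and 0.74 at 3 h. Most of its mean difference of -0.65 ± 0.28 came from set 3, which was lower by 1.53, and set 1 was high at both times. EGR2 was at 2.75, 0.18 and 0.41 at 18 h and at 2.41, 0.89 and 0.64 at 3 h, so that set 1 went against the other sets.

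Among AP-1 subunits, FOSL1 (FRA-1), a FOS relative that accumulates late in the response to growth factors, had the clearest separation. Its levels were 0.97, 0.55 and 0.96 at 18 h, against 1.48, 2.08 and 1.71 at 3 h. All 3 arrays at 18 h were below all 3 at 3 h, with a mean difference of -0.93 ± 0.21 (SE, n = 3 sets, 1.91-fold lower, adjusted p = 0.48). JUN, its usual dimer partner, stood at 0.65, 1.02 and 1.06 at 18 h, against 1.01, 1.95 and 1.32 at 3 h. It was lower in each set although the groups overlap, by -0.52 ± 0.16 on average (adjusted p = 0.577). FOSL2 averaged 0.52 ± 0.27 at 18 h and 0.87 ± 0.31 at 3 h (SD, n = 3 arrays each), JUND 0.84 ± 0.27 and 1.05 ± 0.26 at 18 h and 3 h, and JUNB 0.20 ± 0.39 and 0.32 ± 0.14. FOS itself was near the median at both times, with a difference of 0.07 ± 0.12 (SE). Of the 20 measured AP-1, CREB and immediate-early factors, 16 lay below 0 and 4 above, 7 were lower in all 3 sets, and 3 (EGR1, FOSL1 and JUN) were lower at an unadjusted p under 0.05 in limma. Over all genes these shares were 62.3%, 23.4% and 6.48%. Their median difference was -0.21, against -0.05 for all genes. In the second deposited table without centring it was 0.16, where the array factors add 1 constant to every gene's mean difference and put all genes at 0.31. The list is also brighter than most, with a median level of 0.71 at 18 h and 0.89 at 3 h, against 0.03 and 0.04 for all genes. Of the 124 probes at least 0.25 log2 above the median, 69.4% lay below 0, with a median difference of -0.13. The shares and median over all genes, most of them dimmer, are therefore not a like background for this list. No member of the list passed the adjusted threshold. CEBPB, a factor of the acute-phase response, was the highest member at 0.25.

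Promoter sequence was looked up for 11 genes and searched for 4 motifs where an entry was found. EGR1 and JUN are the genes shown, because both respond to serum through described sites close to the start. The sites were known beforehand, so finding them here is no test. The stretches below are the 250 bases before the RefSeq start (GRCh38.p14), for EGR1 chr5:138465229-138465478 on the plus strand and for JUN chr1:58784048-58784297 on the minus strand. Capitals mark the sites found, none of which overlap.
EGR1: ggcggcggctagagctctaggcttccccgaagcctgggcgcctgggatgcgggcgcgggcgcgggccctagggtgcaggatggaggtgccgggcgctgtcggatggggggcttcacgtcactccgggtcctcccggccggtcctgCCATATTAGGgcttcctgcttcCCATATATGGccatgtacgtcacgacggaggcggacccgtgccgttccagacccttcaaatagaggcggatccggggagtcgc
JUN: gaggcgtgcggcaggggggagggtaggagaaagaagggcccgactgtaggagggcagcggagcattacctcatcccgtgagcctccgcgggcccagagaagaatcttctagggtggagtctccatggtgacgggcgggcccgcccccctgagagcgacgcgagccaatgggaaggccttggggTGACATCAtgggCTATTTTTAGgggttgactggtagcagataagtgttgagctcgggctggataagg
In EGR1 the capitals are 2 CArG boxes, the binding site of serum response factor, at -105 to -96 and -83 to -74 from the start. In JUN they are TGACATCA, a site of AP-1 and ATF dimers, at -67 to -60, and CTATTTTTAG, a site of MEF2 factors, at -55 to -46. These 2 were searched for as TGANNTCA and CTANNNNTAG, where N is any base. The patterns, and their shares below, therefore also take in strings that these factors need not bind. Of 35116 promoter windows of the same length, 1.16% held a CArG box, 6.57% TGANTCA, 10.1% TGANNTCA and 2.36% CTANNNNTAG, all of which read the same on both strands. An entry was found for 9 of 11 genes looked up, and FOSL1 and EGR3 had none. NBL1 held TGANTCA in 1 of its 5 promoter windows and TGANNTCA in another. IGFBP3, GREM1, IL6, IL6ST, SMAD5 and MAPK8 held none of the 4 motifs in these windows. The transcripts of the factors themselves were measured too: SRF (serum response factor) differed by -0.25 and MEF2A by -0.41 ± 0.14 between 18 h and 3 h, and neither passed. Whether these sites or factors have a part in the differences was not tested.

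**Figure D2:**
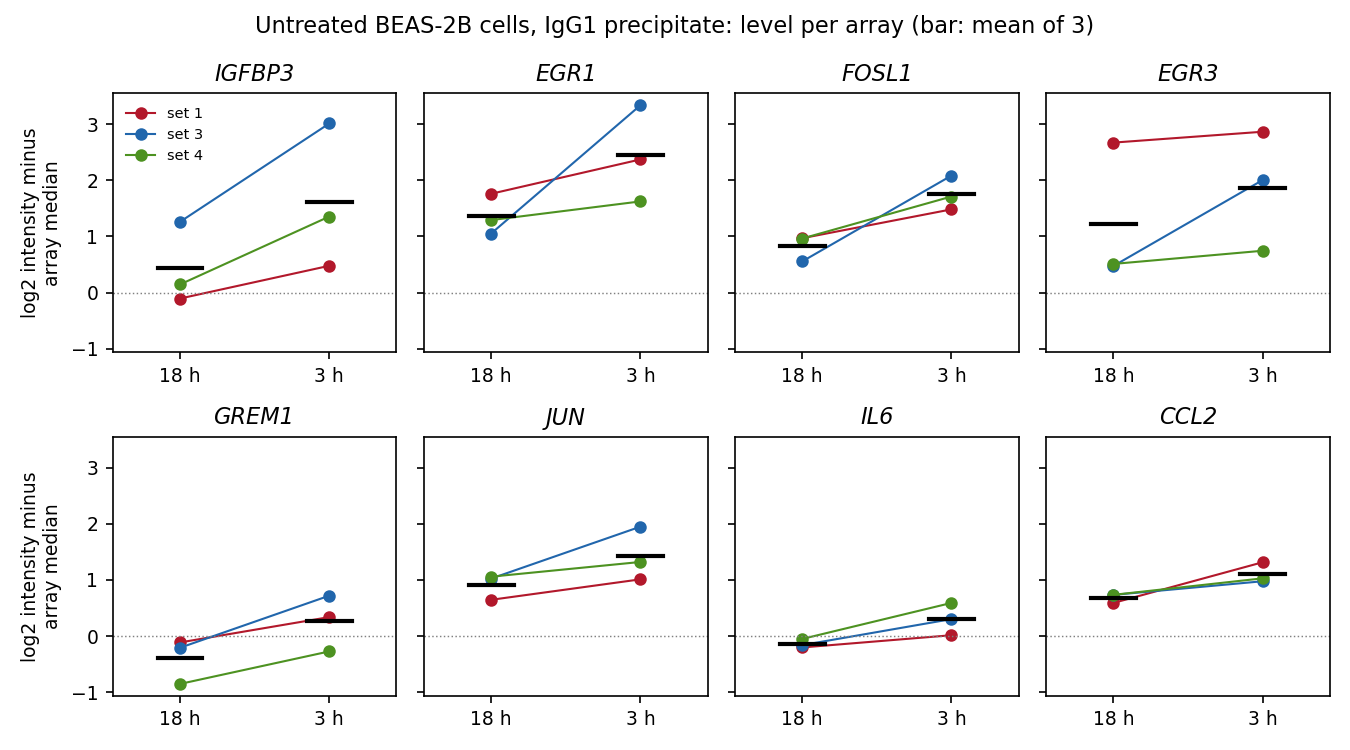
Level of 8 transcripts on each array (log2 intensity minus array median), 18 h on the left and 3 h on the right, with lines joining the arrays of a set and bars at the mean of 3. Most of the 8 were chosen for being lower in each set, and in each of the 8 panels all 3 lines are lower at 18 h. Set 3 has the highest point at 3 h for IGFBP3, EGR1, FOSL1, GREM1 and JUN.

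IGFBP3, a secreted carrier of insulin-like growth factors, had the smallest p of all genes. Its levels were -0.11, 1.26 and 0.14 at 18 h, against 0.48, 3.01 and 1.35 at 3 h. It was lower in each set, by -0.58, -1.75 and -1.21, but sets differ so much in level that the groups overlap (mean -1.18 ± 0.22, SE, n = 3 sets, 2.27-fold lower, adjusted p = 0.48).

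Of the transcripts of TGF-β and BMP signalling, none passed. GREM1, a secreted BMP inhibitor, stood at -0.11, -0.21 and -0.85 at 18 h and at 0.34, 0.72 and -0.27 at 3 h, a mean difference of -0.65 ± 0.14 (SE, n = 3 sets, 1.57-fold lower, adjusted p = 0.48). All its values lay within 1 log2 of the array median. NBL1, another BMP inhibitor, was higher in level, at 0.28, 1.40 and 1.65 at 18 h and 0.50, 1.95 and 2.22 at 3 h (mean -0.45 ± 0.13, adjusted p = 0.577). SMAD5, which carries BMP signals to the nucleus, differed by -0.37 ± 0.12 and SMAD3, which carries those of TGF-β, by -0.32. With each array centred on every 24 rows of the deposited table, SMAD5 differed by -0.14, GREM1 by -0.59 and NBL1 by -0.40. Of 12 measured SMAD proteins and partners 10 were below 0, 5 were lower in all 3 sets, 3 were lower at an unadjusted p under 0.05 and 0 passed, against 62.3%, 23.4% and 6.48% of all genes for the first 3 counts. Their median was -0.13, and 0.23 in the second table without centring. Of the 18 ligands and receptors of the family 13 were below 0, and 1 was lower in all 3 sets (median -0.05, as for all genes). BMPR2, a BMP receptor, was its lowest member at -0.39, of which set 3 gave -1.02. TGFB1, the main ligand, differed by -0.01 ± 0.17.

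The MAP kinases lie upstream of AP-1. Of 11 measured, 10 were below 0, and 7 were lower in all 3 sets, against 62.3% and 23.4% of all genes. Their median was -0.15 (0.22 in the second table without centring). MAPK8, the kinase JNK1 that phosphorylates JUN, was at -0.32, 0.25 and -0.14 at 18 h, against -0.04, 0.64 and 0.29 at 3 h (mean -0.36 ± 0.12, adjusted p = 0.577). MAPK9 (JNK2) differed by -0.30 and MAPK3 (ERK1) by -0.25. MAP2K7, which activates JNK, was the member above 0, at 0.24 ± 0.15. In the 24 rows of the deposited table from SMAD5 to MIF the median difference was -0.13, -0.20 and -0.18 in sets 1, 3 and 4. With each array centred on every 24 rows, MAPK8 differed by -0.14 and MAP2K7 by 0.47. The part of row position in the counts of this list was not tested. MAPK8 and MAPK3 lay within 1 log2 of the median on each array, and none of the 11 passed. Of 25 transcripts of calcineurin, NFAT and calcium signalling 17 were below 0 and 7 were lower in all 3 sets. Both counts lie near the shares over all genes, 62.3% and 23.4%. The median of the 25 was -0.18 (0.18 in the second table without centring), and none had an unadjusted p under 0.05 in limma.

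Cytokine and chemokine transcripts, the subject of the series, mostly had levels near the array median in untreated cells. The median level of the 20 CC chemokines was -0.18 at both times and that of the 20 interleukins -0.24, while CXCL2, CXCL3 and CCL2 had mean levels of 1.05, 0.92 and 0.90 over the 6 arrays. IL6, a cytokine of the acute-phase response, stood at -0.20, -0.16 and -0.05 at 18 h, against 0.01, 0.30 and 0.59 at 3 h. The groups did not overlap, with a mean difference of -0.44 ± 0.13 (SE, n = 3 sets, 1.36-fold lower, adjusted p = 0.577). Its signal-transducing receptor IL6ST (gp130) differed by -0.38 ± 0.12 and IL6R by -0.13 ± 0.12. CCL2, which draws monocytes, was brighter, at 0.59, 0.73 and 0.73 at 18 h, against 1.31, 0.98 and 1.03 at 3 h. It too did not overlap, with a mean of -0.42 ± 0.14 (1.34-fold lower, adjusted p = 0.577). CXCL8, which draws neutrophils, differed by -0.08, -0.42 and -0.80 in sets 1, 3 and 4 (mean -0.43 ± 0.17, adjusted p = 0.621).

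Other chemokines did not move as one. CXCL2 was at 2.72, 0.17 and 0.07 at 18 h and 1.62, 0.43 and 1.30 at 3 h, so that set 1 was higher and sets 3 and 4 lower at 18 h. CXCL1 differed by -0.25 ± 0.14, CXCL10 by -0.08 ± 0.12 and CCL5 by 0.12 ± 0.14. CC chemokines split evenly, 10 above and 10 below 0 (median -0.0043, with 2 lower in all 3 sets), and of 13 CXC, CX3C and XC chemokines 9 were below 0 (median -0.07). Interleukins had 13 of 20 below 0 (median -0.03), interleukin receptors 14 of 21 (median -0.05) and chemokine receptors 11 of 16 (median -0.09). Over all genes 62.3% were below 0 (median -0.05) and 23.4% were lower in all 3 sets. TNF, at 1.91, -0.27 and 0.15 at 18 h and 1.36, -0.21 and -0.16 at 3 h, was above 1 in set 1 alone. IL1A and IL1B, which encode interleukin-1, lay below or near the median on every array and differed by -0.04 ± 0.14 and -0.01 ± 0.13.

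NF-κB drives many of these genes. NFKBIA, its inhibitor and also its target, stood at -0.23, 0.80 and 1.46 at 18 h, against 0.24, 1.40 and 1.63 at 3 h (mean -0.41 ± 0.14, 1.33-fold lower, adjusted p = 0.577). TNFAIP3, another inhibitor, differed by 1.26, -0.21 and -0.12 in sets 1, 3 and 4. Of 33 measured NF-κB inducible genes 18 were above and 15 below 0, with a median of 0.01. Of 16 IFN-γ inducible genes 9 were below 0, with a median of -0.04. ICAM1 (-0.04 ± 0.12) and IRF1 (0.00 ± 0.13) were close to 0. Of 35 measured transcripts described as HuR ligands or as carrying AU-rich elements, 22 were below 0, with a median of -0.04 against -0.05 for all genes. Of these 35, 7 were lower in all 3 sets. For comparison, 62.3% of all genes were below 0 and 23.4% were lower in all 3 sets.

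**Figure D3:**
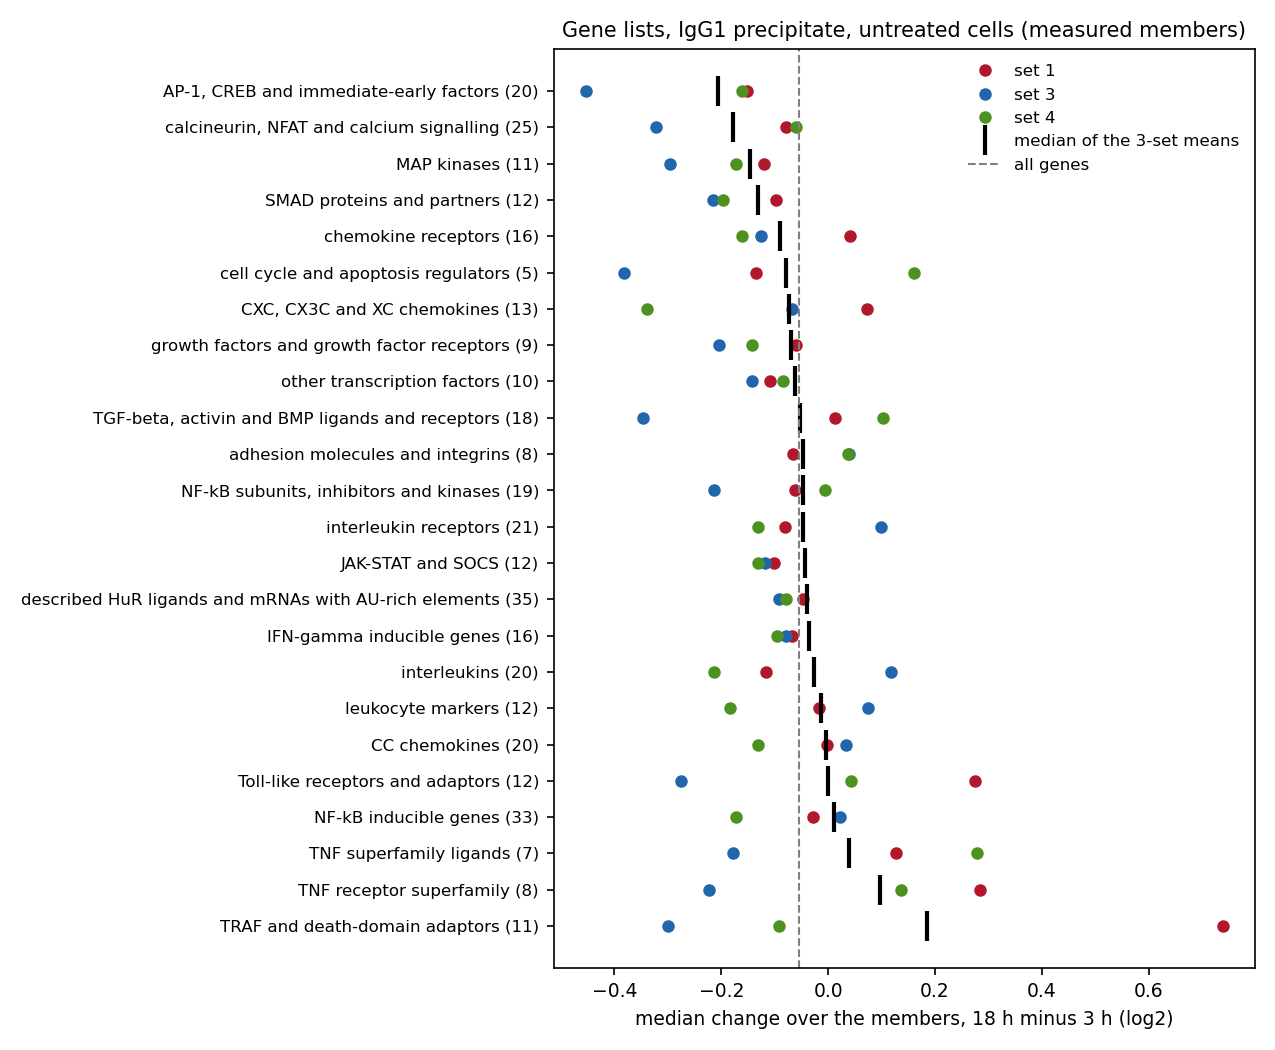
Median difference between 18 h and 3 h (log2) over the measured members of each gene list with 5 or more of them, 1 dot per set, bars for the median over the 3-set means and a dashed line at the median of all genes (-0.05). The AP-1, CREB and immediate-early factors lie lowest, at -0.21, and the TRAF and death-domain adaptors lie highest, at 0.19, where set 1 is at 0.74 and sets 3 and 4 are below 0.

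Higher transcripts at 18 h were fewer and their differences smaller. CD27, a TNF receptor family member known from lymphocytes, stood at 0.08, -0.08 and 0.23 at 18 h, against -0.21, -0.48 and 0.01 at 3 h (mean 0.30 ± 0.12, SE, n = 3 sets, adjusted p = 0.65). TYK2, a kinase of interferon receptors, was at 1.06, 0.17 and 0.94 at 18 h, against 0.34, 0.06 and 0.62 at 3 h (mean 0.38 ± 0.15, adjusted p = 0.668). These 2 were the higher genes with an unadjusted p under 0.05. With each array centred on every 24 rows of the deposited table, CD27 differed by 0.20 and TYK2 by 0.12, while LTA, CXCR5 and MAP2K7 differed by 0.34, 0.39 and 0.47. Among genes higher in all 3 sets CCL15, LTA, CXCR5, IKBKG, SLA, IL2RB, IL17RA and MAP2K7 came next by p, between 0.20 and 0.32. Both CD27 and CCL15 lay within 1 log2 of the median on every array, and IL17RA was at 4.02 and 3.72 in set 1 at 18 h and 3 h but below 0.30 in the other sets.

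The highest mean differences belonged to TRAF5, TRAF4 and TRAF3, adaptors that pass signals from TNF receptors, and to ZFPM2, a cofactor of GATA factors, and rested on set 1. TRAF3 differed by 2.35, -0.59 and -0.26 in sets 1, 3 and 4, TRAF5 by 2.19, -0.32 and -0.20, and TRAF4 by 1.86, -0.20 and -0.11. ZFPM2 differed by 1.42, -0.04 and 0.13. Without set 1 the median of the 11 TRAF and death-domain adaptors was -0.17, against 0.19 with it. The rows of these genes stand together in the deposited table, and 10 of the 12 largest differences of set 1 lay between rows 331 and 364. In set 1 the median difference was 0.30, 0.34 and 1.26 in the last 3 blocks of 24 rows, and in set 3 it was -0.21, -0.30 and -0.50, with 4 measured genes in the last block. With each array centred on every 24 rows, a setting chosen after this trend was seen, TRAF5 differed by 0.30 (against 0.56), while IGFBP3 differed by -1.19, EGR1 by -0.95 and FOSL1 by -0.80. In that setting TYK2 differed by 0.12 (against 0.38), CD27 by 0.20 (against 0.30), SMAD5 by -0.14 (against -0.37) and MAPK8 by -0.14 (against -0.36). In the anti-HuR precipitate of untreated cells the medians of these last 3 blocks were -0.50, -0.64 and -0.69 in set 1. They were 0.11, 0.08 and -0.57 in set 3, and 0.65, 0.52 and 1.00 in set 4. The sources used here do not state membrane positions, and the part of position in these values was not tested.

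**Figure D4:**
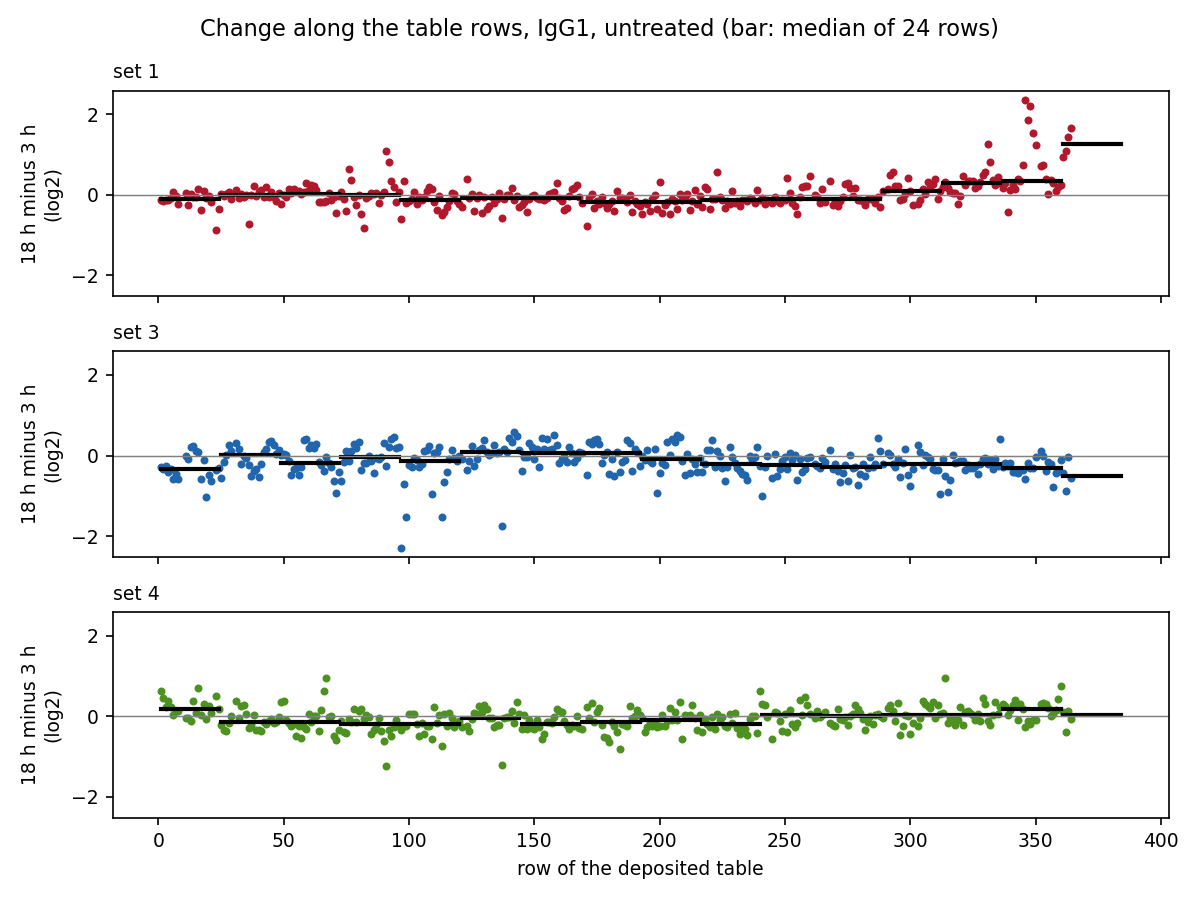
Difference between 18 h and 3 h (log2) of each gene against its row in the deposited table, 1 panel per set, with bars at the median of each 24 rows (4 measured genes in the last). In set 1 the values climb to 2.35 (TRAF3) near the end of the table, which sets 3 and 4 do not show, and in set 3 EGR1 lies at -2.28.

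Of the 12 brightest transcripts, EGR1 had a mean difference of -1.08, and none passed. Calmodulin, the calcium sensor, is encoded by some of them. CALM2 was at 2.86, 4.11 and 4.77 at 18 h and 3.74, 4.47 and 4.26 at 3 h (mean -0.24 ± 0.26), and CALM3 differed by -0.17 ± 0.15. Both were higher in set 4 and lower in sets 1 and 3 at 18 h. MIF, a cytokine abundant in epithelial cells, averaged 3.46 ± 1.16 at 18 h and 3.38 ± 1.12 at 3 h (SD, n = 3 arrays each). MYC, a growth-promoting transcription factor, was at 5.48, 1.50 and 1.45 at 18 h and 5.57, 2.49 and 1.13 at 3 h, so that set 1 was the highest by far at both times. CDKN2B, a cell cycle inhibitor, had the opposite order, at -0.25, 3.09 and 3.24 at 18 h and -0.07, 3.48 and 2.61 at 3 h. GSK3A, a kinase, was higher in set 1 too, and CDKN1A (p21) differed by -0.08 ± 0.13. With the genes ordered by mean level in 4 groups of 88 or 89, the median difference was -0.05, -0.01, -0.06 and -0.13 going up in level, and 1, 4, 8 and 12 genes had an unadjusted p under 0.05. In the brightest group the median was -0.09, -0.36 and 0.02 in sets 1, 3 and 4.

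In the anti-HuR precipitates of the same untreated cells, 28 genes were lower at 18 h in all 3 sets (7.89%) and 17 were higher (4.79%), and 0 passed in limma, with 5 at an unadjusted p under 0.05. EGR1 differed by -1.51, -2.78 and -0.11 in sets 1, 3 and 4 there (mean -1.47 ± 0.48, SE, adjusted p = 0.995), FOSL1 by -1.31 ± 0.39, EGR3 by -1.01 ± 0.40, IGFBP3 by -0.79 ± 0.47 and GREM1 by -0.74 ± 0.27. Set 3 was the lowest for each of these 5 genes with either antibody. In both precipitates together 17 genes were lower in all 6 pairs (4.79%). Both carry the same set numbers, so these 6 pairs are not independent replicates. The difference between antibodies was tested over the 12 untreated arrays: 0 genes passed, 0 had an unadjusted p under 0.05, and for EGR1 the IgG1 difference minus the HuR difference was 0.39 (95% interval -1.28 to 2.06, adjusted p = 0.998). For IGFBP3 it was -0.40 (-1.81 to 1.02) and for FOSL1 0.38 (-0.76 to 1.52). Across genes, differences of the IgG1 and HuR precipitates correlated at -0.03, 0.76 and 0.28 in sets 1, 3 and 4, a description over 355 genes that share membranes and sets.

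In cells given TNFα and IFNγ, the IgG1 precipitate gave FOSL1 differences of -0.08, -1.18 and -1.56. IGFBP3, at -0.17, -0.36 and 0.44, and EGR1, at 0.77, -1.56 and -1.18, had sets on both sides of 0. The untreated minus the stimulated difference was 0.01 ± 0.44 for FOSL1 (adjusted p = 0.994) and -1.16 ± 0.35 for IGFBP3 (adjusted p = 0.725), and 0 genes passed, with 18 at an unadjusted p under 0.05. Over the 4 combinations of agent and antibody, 4 genes were lower at 18 h in all 12 pairs (1.13%), FOSL1, IL12A and IL6R among them. These 12 pairs share their set numbers too and are not independent replicates. IL12A and IL6R were dim throughout, at -0.42 ± 0.14 and -0.26 ± 0.07 at 18 h and -0.15 ± 0.17 and -0.14 ± 0.04 at 3 h in the untreated IgG1 arrays.

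**Figure D5:**
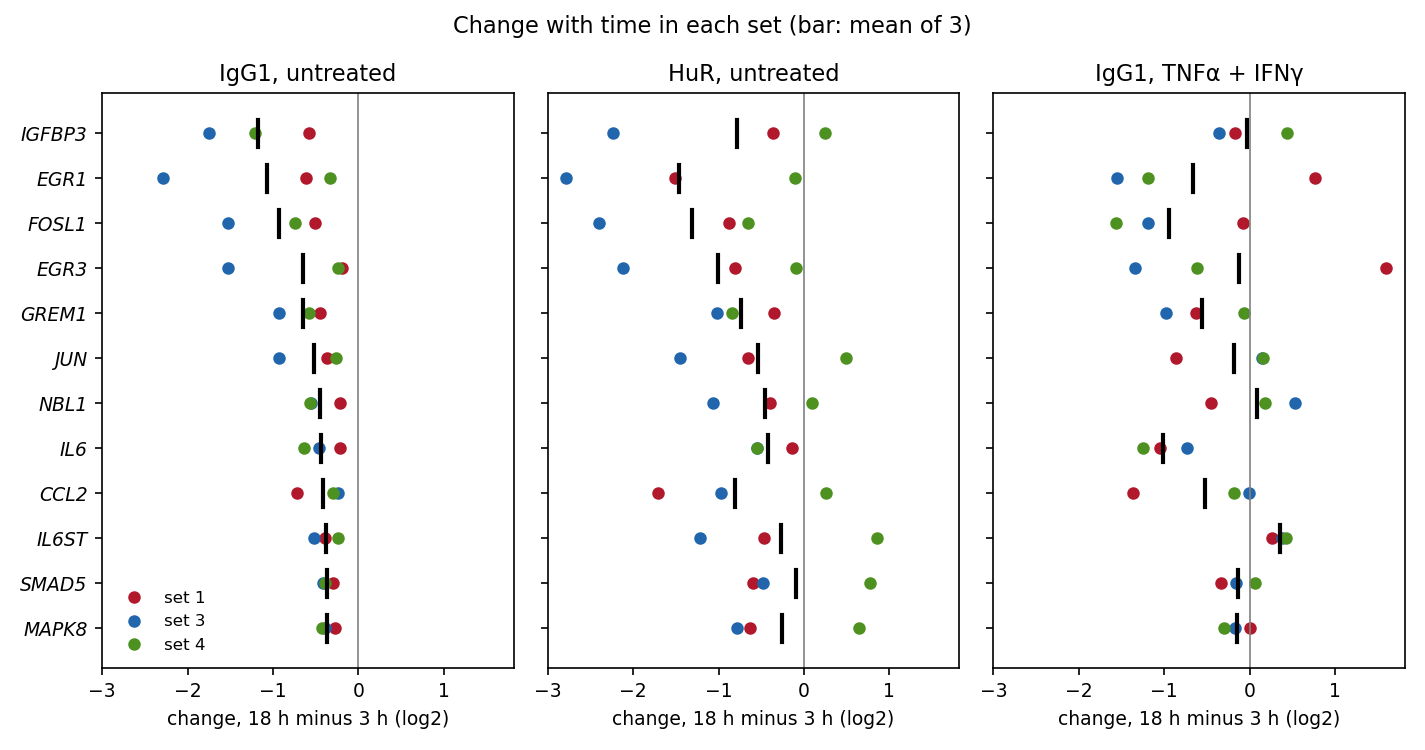
Difference between 18 h and 3 h (log2) of 12 genes in each set, in the IgG1 precipitate of untreated cells, the HuR precipitate of untreated cells and the IgG1 precipitate of cells given TNFα and IFNγ, with bars at the mean of 3. Most of the 12 genes were chosen for being lower in each set of the first panel, where all 12 lie below 0. FOSL1, GREM1 and IL6 lie below 0 in each set of all 3 panels.

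The label was checked against cell type markers. The array measured 0 of 12 epithelial markers looked for, so the epithelial identity of the cells could not be examined here. Of 38 leukocyte markers 12 were measured, and none exceeded 1 log2 above the median on average at either time, with a median level of -0.21 at 18 h and -0.16 at 3 h. Their linear levels, summed over the 12 probes, were 9.91 to 12.3 times the array median at 18 h and 10.5 to 12.1 times at 3 h. For scale, 12 probes at the median would sum to 12. Of 11 endothelial and fibroblast markers 3 were measured, with sums of 2.72 to 5.16 at 18 h and 3.07 to 6.76 at 3 h. These 3 were the collagen genes COL1A1, COL1A2 and COL3A1, so endothelial markers were not examined.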

How the data were processed

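RNA precipitated with an IgG1 control antibody from untreated BEAS-2B cells at 18 h and 3 h was hybridised, as radiolabelled cDNA, to a membrane array, per the labels' protocols. The authors deposited 1 intensity per probe and array. Of 384 probes 29 held no value and were left out. Another deposited table multiplies these intensity values by 1 factor per array (0.542 to 3.64 over 24 arrays, largest departure 2.34 units). The sources used here do not state image analysis, background treatment or the factor's origin. Probes were named by accession through RefSeq's GRCh38.p14 genes (342 names), and 13 probes keep the file's symbol.

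Log2 intensity minus the array median was fitted with limma 3.58.1 in R 4.3.3 (lmFit, eBayes) with set as a block, and p-values were adjusted over the 355 probes (Benjamini-Hochberg, threshold 0.05). Same-numbered 18 h and 3 h arrays deviated together from their group means (correlations 0.88, 0.74 and 0.75), so the numbers were taken to pair them. The fit was tested on simulated data. The number of arrays, 3 per group, limits the precision. The limma p-values and SE rest on a moderated spread. It combines each gene's own spread between these sets, which the design text calls biological replicates, with a spread pooled over all genes. An SE given with n = 3 sets is therefore not that of the gene's own differences alone. Genes named in the text are, by rule, the 10 higher and 10 lower genes of smallest p whose 3 sets moved the same way, the 12 brightest, 20 listed transcripts and the extremes of each list. EGR2, EGR3, IL12A, IL6R, CD247, IL12RB2, NUP214, SOCS6 and the other list members given with values were chosen after their values were seen. The members, gene lists and tests were chosen with earlier results of these data known. Some genes named by the rule are not reported here, and they stay in the fits and counts. Alternatives were quantile normalization, no normalization, the second table, normexp background correction (offset 50), a filter on dim probes (0.25 log2 above the median), no replicate block, each set left out, fits over 12 and 24 arrays, array weights and centring on every 24 table rows.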

Additional observations from a re-analysis of the deposited data

Results flagged for a closer look

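For 3 of the genes named by the rule, every set of untreated cells differed one way between 18 h and 3 h in the IgG1 precipitate. Every set of cells given TNFα and IFNγ differed the other way. The limma test of that difference did not pass for any of the 3. The share of all genes with such opposite directions is not given here. For scale, 23.4% of all genes were lower and 5.07% were higher in all 3 untreated sets. IL6ST differed by -0.40, -0.52 and -0.24 in untreated cells and by 0.27, 0.38 and 0.42 in stimulated cells, so that the untreated minus the stimulated difference was -0.74 (adjusted p = 0.513). MEF2A differed by -0.15, -0.61 and -0.46 in untreated cells and by 0.86, 0.06 and 0.15 in stimulated cells, a difference of -0.77 (adjusted p = 0.725). TBX21, a lymphocyte transcription factor, differed by 0.01, 0.02 and 0.30 in untreated cells and by -0.18, -0.12 and -0.29 in stimulated cells, a difference of 0.31 (adjusted p = 0.725).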

How the results depend on the processing

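Against 0 genes of the IgG1 comparison that passed, quantile normalization gave 3 (FOSL1 and IGFBP3 among them), no normalization 4 (EGR1, FOSL1 and IGFBP3 among them), and leaving out single sets 0 to 8. Leaving out set 1 gave 8 (IGFBP3, EGR1, FOSL1, EGR3, GREM1, FGF2 and CXCL2 among them), leaving out set 3 gave 1 (IGFBP3) and leaving out set 4 gave 0. In the fits without set 1 and without normalization every gene has the same standard error (0.22 and 0.24), since limma pooled the error over all genes, and their small p rest on that. All these calls were lower at 18 h. The second table, normexp, the dim filter (124 probes), array weights, the fits over 12 and 24 arrays, centring on 24 rows and the fit with no replicate block gave 0, the last with 3 genes at an unadjusted p under 0.05. For the HuR precipitate quantile normalization gave 2 (EGR1 among them), normexp 1, the dim filter 1 and leaving out single sets 0 to 1. For the untreated minus the stimulated difference no normalization and the second table gave 1 each (CXCL8), and leaving out single sets 0 to 8, of which 8 without set 1. The difference between antibodies gave 0 throughout.

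Under every alternative run, IGFBP3 (-2.03 to -0.82), FOSL1 (-1.48 to -0.57) and EGR1 (-1.49 to -0.47) were lower at 18 h, with adjusted p between 6.66e-09 and 0.999. The uncentred second table put the median of all genes at 0.31 and normexp put it at -0.20, against -0.05. The second table adds 1 constant to every gene's mean difference, which took 31 of 83 named genes across 0 and says nothing about single genes. Under each other alternative 0 to 12 named genes changed sign. A sign change counted as a reversal only where the 95% interval left out 0 in one of both fits, a definition chosen after many genes near 0 were seen to change sign, and no gene met it. Most probes lie within 1 log2 of the array median, where little signal over background limits what 3 sets can show.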
